A study of Mus musculus with 9 samples.

Results

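Amacrine cells are the inhibitory interneurons of the inner retina, and 9 genes for transcription factors that mark all or some of them were followed through whole retinas of *Rbpms*-CreERT2 knock-in mice. The 9 genes were taken by symbol, namely *Pax6*, *Tfap2a*, *Tfap2b*, *Tfap2c*, *Meis2*, *Barhl2*, *Ebf3*, *Neurod6* and *Sox2*, out of 25239 gene names in the deposited tables. All 9 passed the filter of a mean of at least 1 TPM (a level per transcript length and per library) and were among the 15198 genes tested. The study asked whether inserting a P2A-CreERT2 cassette at the C-terminus of RBPMS, an RNA-binding protein of retinal ganglion cells (RGCs), alters the retina. Bulk RNA-Seq was done at postnatal day 42 on 3 +/+ mice, 3 Cre/+ mice (*Rbpms*-CreERT2 on one allele) and 3 Cre/Cre mice (on both alleles), all C57BL/6J, with the pair of retinas of a mouse as a library. The allele descends from zygotes edited with CRISPR/Cas9, and CreERT2 is made where *Rbpms* is transcribed, which in the neural retina is the RGC and not the amacrine cell. The sources used here give no tamoxifen treatment and no floxed or reporter allele for these 9 mice.

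Amacrine cells are born from progenitors that switch on PTF1A, and they keep a set of transcription factors for life. PAX6 and the AP-2 proteins TFAP2A, TFAP2B and TFAP2C are found in most or many amacrine cells, whereas MEIS2, BARHL2, EBF3, NEUROD6 and SOX2 mark subsets of them. Several of the 9 genes do not belong to amacrine cells alone. *Pax6* is also transcribed in RGCs and horizontal cells, *Tfap2a* and *Tfap2b* in horizontal cells, *Barhl2* and *Ebf3* in some RGCs, and *Sox2* in Müller glia, where it is more widely known as a marker. A whole-retina level therefore adds several cell types, and fewer cells of a type cannot be told apart from less RNA per cell. All 15 markers of amacrine cells examined beside them, such as *Gad1*, the enzyme that makes GABA, with 287 ± 5.74 TPM in +/+ (SD, n = 3), were above the filter.

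The promoters of 3 of the genes are shown because these genes are the highest, the lowest and the only one whose genotypes separated. Each sequence holds the 250 bases before the start site in RefSeq (build GRCm38.p6), 5′ to 3′ on the gene's strand. Capitals mark matches on either strand to GCCNNNGGC, the palindrome bound by AP-2 proteins, TGACAG, a MEIS core, or ACAAAG, a SOX core.
*Pax6*, chr2:105668646-105668895, plus strand: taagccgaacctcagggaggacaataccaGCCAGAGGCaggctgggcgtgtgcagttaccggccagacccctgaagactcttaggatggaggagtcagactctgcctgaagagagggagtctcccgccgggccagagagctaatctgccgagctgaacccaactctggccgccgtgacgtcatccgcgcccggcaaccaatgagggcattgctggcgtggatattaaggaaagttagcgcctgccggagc
*Sox2*, chr3:34649745-34649994, plus strand: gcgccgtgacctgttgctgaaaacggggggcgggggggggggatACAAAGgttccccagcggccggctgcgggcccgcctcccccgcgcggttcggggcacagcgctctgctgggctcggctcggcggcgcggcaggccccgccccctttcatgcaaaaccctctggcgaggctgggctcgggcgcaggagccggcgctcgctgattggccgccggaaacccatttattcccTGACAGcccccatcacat
*Neurod6*, chr6:55681264-55681513, minus strand: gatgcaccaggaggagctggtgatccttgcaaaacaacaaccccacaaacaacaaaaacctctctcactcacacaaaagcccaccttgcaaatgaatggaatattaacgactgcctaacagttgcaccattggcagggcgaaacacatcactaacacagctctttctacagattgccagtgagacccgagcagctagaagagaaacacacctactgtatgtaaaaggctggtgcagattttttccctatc

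The windows differ in base composition, with 72.0% G and C before *Sox2*, 60.8% before this start of *Pax6* and 46.0% before *Neurod6*, where the median of all 32851 windows of the same length was 52.4%. The *Pax6* window holds an AP-2 match, the *Sox2* window holds a MEIS and a SOX match, and the *Neurod6* window holds none of the 3. Such matches are common, since 13.7% of all windows hold GCCNNNGGC, 15.9% hold TGACAG and 16.5% hold ACAAAG. RefSeq windows were found for 8 of the 9 genes, 10 windows in all, with *Tfap2c* as the exception. Over these 10 windows, GCCNNNGGC occurred in those of *Ebf3* and *Pax6*, TGACAG in those of *Ebf3*, *Pax6* (a downstream start) and *Sox2*, and ACAAAG in those of *Barhl2*, *Pax6* (the downstream start) and *Sox2*. TATAAA occurred before *Meis2* alone (12.4% of all windows). CAGATG, an E-box bound by NeuroD proteins (14.4% of all windows), occurred in none of the 10. MEIS and SOX matches overlap in the second *Pax6* window.

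One library stood apart from the rest. Cre/Cre replicate 1 had 9.21% of its TPM in ribosomal precursor RNA (Rn45s), against at most 0.336% in the other 8 libraries, and the median gene of that library was at 0.918 of its typical level, against 0.985 to 1.03 elsewhere. For the 9 genes, fold changes and counts that rest on this library are therefore given also without it, or after scaling each library by that median ratio. Of the marker lists, only the Müller glial and RGC sums are given also after scaling. Counts over these lists and fold changes of other genes rest on all 9 libraries. Aligned bases ranged from 4.05 to 4.65 gigabases per library. *Xist*, the RNA of the silenced X, was at 516 to 585 TPM in 6 libraries, among them all of +/+, and at 2.08 to 3.16 TPM in Cre/+ replicate 3 and Cre/Cre replicates 1 and 3. *Ddx3y*, a gene of the Y chromosome, was at 72.3, 54.8 and 75.0 TPM in these 3 libraries, in this order, and at most at 0.209 TPM in the others. The labels give no sex, but by these 2 genes sex was unequally spread over the genotypes and partly confounded with Cre/Cre. Lens genes summed to 1399 TPM in Cre/Cre replicate 2 and 25.6 to 337 TPM in the other libraries, and their part in the values below was not tested. *Rbpms*, the gene with the insertion, had 43.2, 38.4 and 43.4 TPM in +/+, 31.3, 32.2 and 33.1 TPM in Cre/+, and 19.7, 19.1 and 24.2 TPM in Cre/Cre, an order that follows the genotype labels.

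In +/+ retinas the 9 genes spanned a wide range of levels, with *Pax6* at the top and *Neurod6* at the bottom. *Pax6* had 278 ± 17.5 TPM (SD, n = 3 here and below), above 96.5% of the genes tested, and made up 43.9% of the summed TPM of the 9 genes. *Tfap2b* followed with 122 ± 5.94 TPM, then *Meis2* with 78.0 ± 7.01 and *Sox2* with 50.8 ± 1.83 TPM. *Tfap2a* had 35.4 ± 2.52 TPM, *Ebf3* 30.0 ± 2.01, *Barhl2* 20.3 ± 1.34 and *Tfap2c* 16.0 ± 1.08 TPM. *Neurod6* was far below with 2.65 ± 0.397 TPM, a level that 10.9% of the genes tested did not reach. No neighbours in this order overlapped within +/+, and in each of the 9 libraries every gene was above the next one. Over all 9 libraries, the ranges of *Tfap2a* and *Ebf3*, of *Ebf3* and *Barhl2*, and of *Barhl2* and *Tfap2c* did overlap, so the levels of these neighbours lay closer together than the libraries did.

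**Figure D1:**
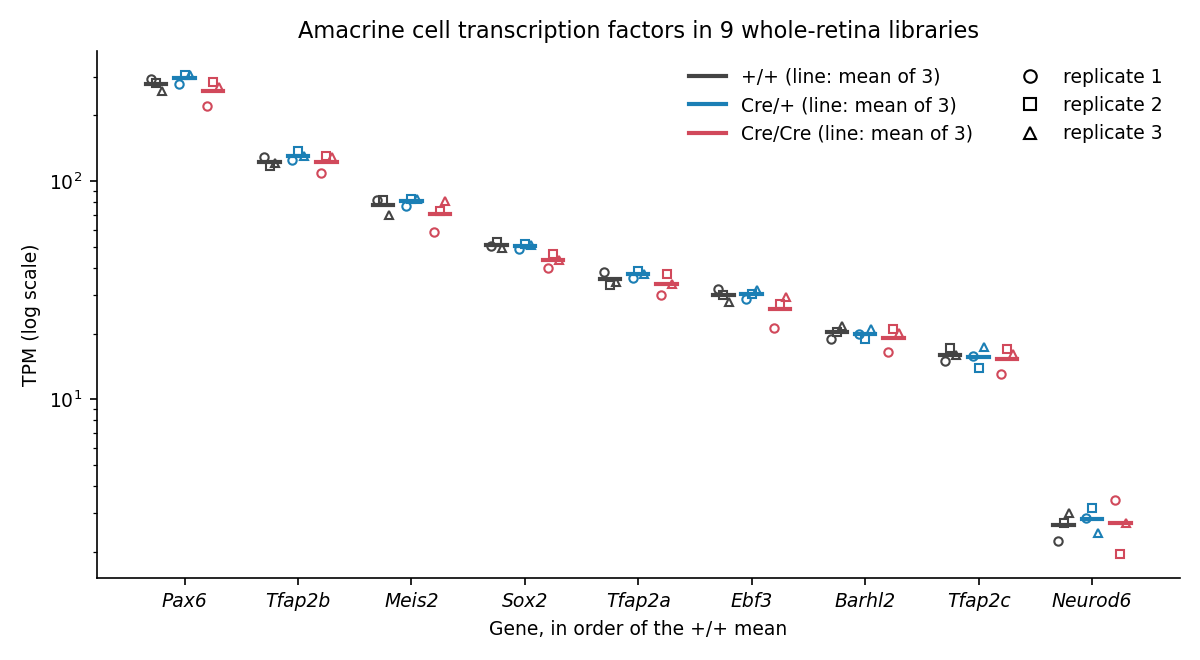
TPM of the 9 genes (log axis) in every library, with a line at the mean of the 3 libraries of each genotype and circles, squares and triangles for replicates 1, 2 and 3. *Pax6* lies near 278 TPM and *Neurod6* near 2.65 TPM, and for 8 of the 9 genes the lowest point is the circle of Cre/Cre.

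The distance of *Pax6* from the others depended on the measure. The tables also give coverage, the mean number of reads over the bases of a gene, and by coverage *Pax6* exceeded *Tfap2b* 1.30-fold, where by TPM it exceeded it 2.27-fold. Its share of the 9 genes was 27.2% by coverage. Coverage divided by FPKM (fragments per length and depth) was 1.73 for *Pax6*, 3.03 for *Tfap2b*, 3.47 for *Meis2*, 3.76 for *Tfap2a* and 4.31 to 4.38 for *Ebf3*, *Barhl2*, *Neurod6* and *Sox2*, with *Tfap2c* in between. GENCODE lists 26 transcripts for *Pax6*, 19 for *Meis2*, 9 for *Tfap2a*, 8 for *Ebf3*, 6 for *Tfap2c*, 5 for *Tfap2b* and 1 each for *Barhl2*, *Neurod6* and *Sox2*, an order that the ratio does not follow throughout. The order of the 9 genes was the same by coverage, but *Tfap2a* was above *Ebf3* in 7 of 9 libraries only, with a ratio of 1.03.

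**Figure D2:**
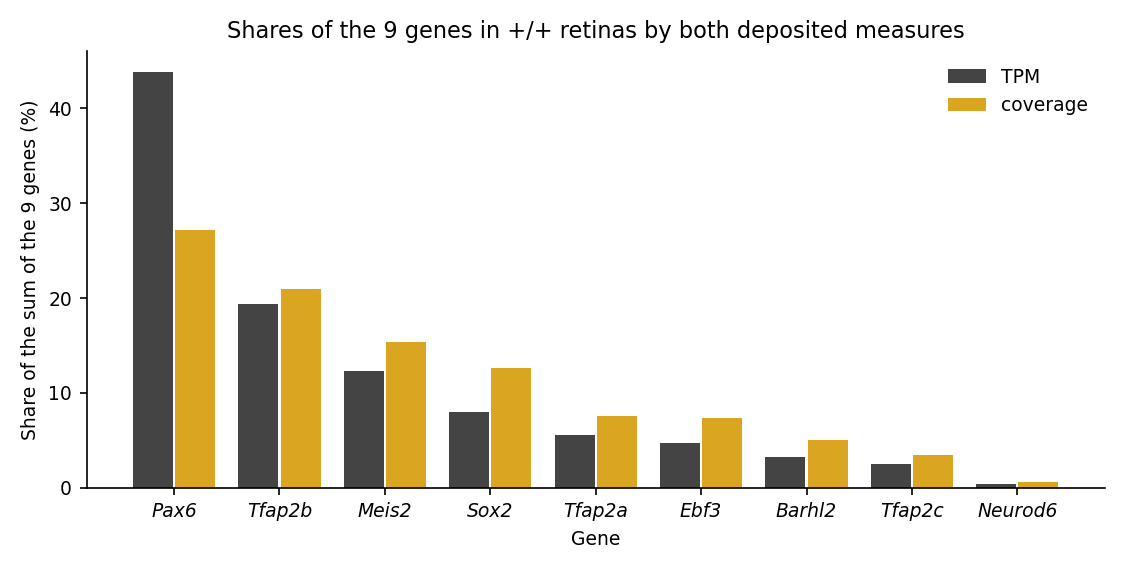
Share of each gene in the sum of the 9 genes in +/+ retinas, in percent, by mean TPM (grey bars) and by mean coverage (yellow bars) of 3 libraries. The bar of *Pax6* falls from 43.9% to 27.2%, and the bars of the other 8 genes are taller by coverage.

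With 1 knock-in allele, no gene of the 9 was called. In limma, with Benjamini-Hochberg adjustment over all genes tested and a limit of 0.05, 0 of 9 passed in Cre/+ against +/+, where 0.00658% of the genes tested did (1 gene). At an unadjusted p under 0.05 it was 0 of 9, against a background of 10.7%, and in 0 of 9 did the genotypes fail to overlap, against 22.2%. Adjusted p-values of the 9 ran from 0.678 to 0.983. Log2 fold changes, on the scale of log2(TPM + 1), ran from -0.03 for *Tfap2c* to 0.10 for *Pax6*, with a median of 0.06, where the median of all genes tested was 0.00. The 95% intervals of all 9 lay between -0.35 and 0.48, so that a 2-fold difference of any of them was outside its interval.

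With both alleles modified, the 9 genes were again not called, and *Sox2* was the one gene whose genotypes separated. At an adjusted p of at most 0.05, 0 of 9 passed in Cre/Cre against +/+ (background 0.00658%, 1 gene, which was *Rbpms*). At an unadjusted p under 0.05 it was 1 of 9, *Sox2*, where 6.97% of all genes passed. Genotypes did not overlap for 1 of 9, again *Sox2*, where this held for 10.8% of all genes, a share close to 1 in 9. Log2 fold changes ran from -0.23 (*Sox2*) to 0.01 (*Neurod6*), 8 of 9 were below 0 as were 57.7% of all genes, and the median was -0.08 against -0.02 over all genes. Without Cre/Cre replicate 1, 5 of 9 were below 0 (43.8% of all genes), the median was -0.0043 against 0.02 over all genes, and *Sox2* was still the 1 of 9 with an unadjusted p under 0.05 (9.47% of all genes). Adjusted p-values in limma ran from 0.624 to 0.997. In Cre/Cre against Cre/+, 0 of 9 genes were called (background 0.0132%, 2 genes), *Pax6* and *Sox2* had an unadjusted p under 0.05 (background 6.58%), and the genotypes did not overlap for *Sox2* alone (background 12.0%). All 9 log2 fold changes were below 0 there (59.2% of all genes), with a median of -0.15. Without Cre/Cre replicate 1, 7 of 9 were below 0 (44.0% of all genes), with a median of -0.08, and 1 of 9, *Sox2*, had an unadjusted p under 0.05 (4.97% of all genes). These comparisons share libraries, and Cre/Cre replicate 1 enters both of the last ones.

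**Figure D3:**
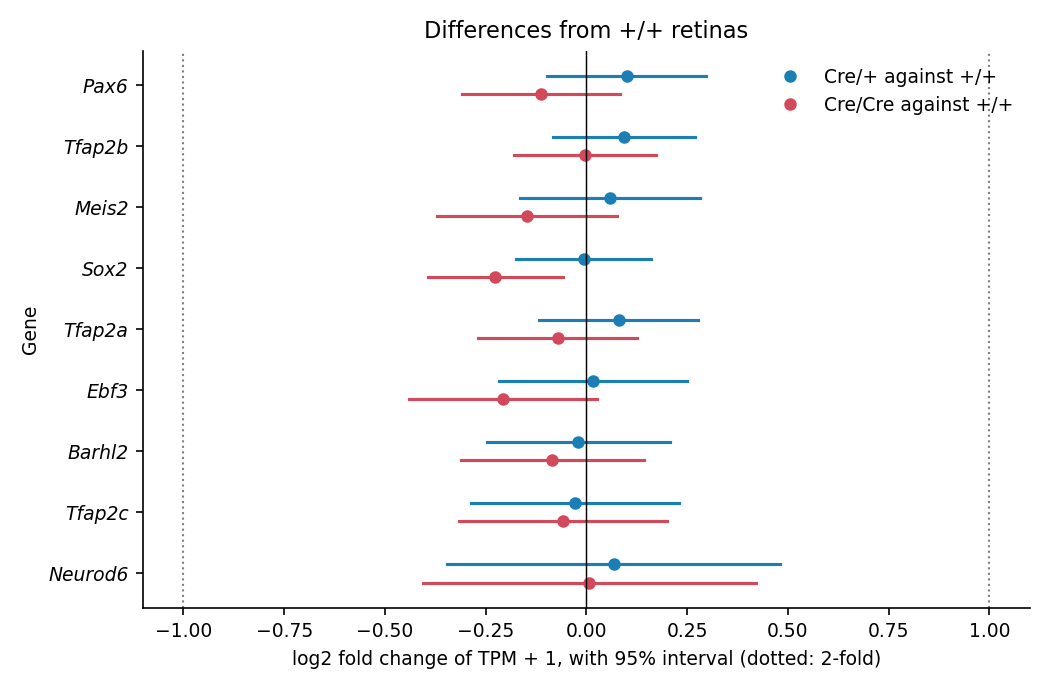
Log2 fold change of TPM + 1 against +/+ for each gene, in Cre/+ (blue) and in Cre/Cre (red), with the 95% interval from limma as a bar and a 2-fold difference as dotted lines. Of the 18 intervals, that of *Sox2* in Cre/Cre is the one that does not cross 0, and none reaches a dotted line.

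Among the factors found across amacrine cells, *Pax6* is a paired-box and homeobox factor needed for eye formation and kept in mature amacrine cells (chromosome 2, 105668896 to 105698410, plus strand, mm10). It had 293, 281 and 259 TPM in +/+, 278, 307 and 308 TPM in Cre/+, and 220, 283 and 270 TPM in Cre/Cre, with replicates 1, 2 and 3 in this order here and below. The genotypes overlapped, and the lowest value was that of Cre/Cre replicate 1. Its log2 fold change was 0.10 ± 0.09 (SE) in Cre/+ and -0.11 ± 0.09 in Cre/Cre, and without Cre/Cre replicate 1 the latter became -0.0043. Against Cre/+, the log2 fold change of *Pax6* in Cre/Cre was -0.21 (interval -0.41 to -0.02, limma unadjusted p = 0.0356, adjusted p = 0.74), and without Cre/Cre replicate 1 it was -0.10 (unadjusted p = 0.161). Reads could be shared at the ends of the gene, where *Pax6os1* (8.05 to 12.0 TPM) and *Elp4* (19.3 to 26.2 TPM) lie on the opposite strand, but the annotated exons share 0 bases.

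Of the 3 AP-2 genes, *Tfap2a* and *Tfap2b* kept a nearly fixed proportion to each other. *Tfap2a*, a factor of amacrine and horizontal cell differentiation (chromosome 13, 40715302 to 40734920, minus strand), had 38.3, 33.4 and 34.6 TPM in +/+, 36.1, 38.8 and 37.6 TPM in Cre/+, and 30.0, 37.5 and 33.7 TPM in Cre/Cre. *Tfap2b*, which acts with it in the same cells (chromosome 1, 19208914 to 19238845, plus strand), had 129, 117 and 121 TPM in +/+, 125, 137 and 130.0 TPM in Cre/+, and 109, 130.0 and 128 TPM in Cre/Cre. *Tfap2c*, the AP-2 gene of part of the amacrine cells (chromosome 2, 172549593 to 172558621, plus strand), had 14.9, 17.1 and 15.9 TPM in +/+, 15.7, 13.9 and 17.4 TPM in Cre/+, and 13.0, 17.1 and 16.0 TPM in Cre/Cre. All 3 overlapped between the genotypes, and each was lowest in Cre/Cre replicate 1. The TPM ratio of *Tfap2b* to *Tfap2a* was 3.46 ± 0.0759 for +/+, 3.49 ± 0.0402 for Cre/+ and 3.63 ± 0.171 for Cre/Cre (SD, n = 3), and that of *Tfap2b* to *Tfap2c* was 7.71 ± 0.888, 8.44 ± 1.27 and 8.00 ± 0.378, with a wider relative spread in +/+ and Cre/+. In Cre/Cre, log2 fold changes against +/+ were -0.07 ± 0.09 for *Tfap2a*, 0.00 ± 0.08 for *Tfap2b* and -0.06 ± 0.12 for *Tfap2c* (SE). Without Cre/Cre replicate 1 these became 0.01, 0.08 and 0.05. The value of *Tfap2b*, -0.0036 with all libraries, also turned positive without +/+ replicate 1 (0.034), after median-ratio scaling (0.025) and with *Xist* as a covariate (0.048). That of *Tfap2a* did so with *Xist* (0.0061). *Gm26688*, an antisense gene at 1.95 to 3.65 TPM, shares 380 exonic bases with *Tfap2a*, which makes the *Tfap2a* level uncertain by reads that the strand setting of the counting, not given in the sources used here, could assign to either.

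Of the subset factors, *Meis2*, a homeobox cofactor found in GABAergic amacrine cells (chromosome 2, 115861264 to 116067444, minus strand), had 81.9, 82.1 and 69.9 TPM in +/+, 77.0, 83.0 and 83.2 TPM in Cre/+, and 58.6, 72.6 and 80.9 TPM in Cre/Cre. *Ebf3*, a helix-loop-helix factor of glycinergic amacrine cells and some RGCs (chromosome 7, 137193671 to 137314445, minus strand), had 32.0, 30.0 and 28.0 TPM in +/+, 28.8, 30.4 and 31.8 TPM in Cre/+, and 21.3, 27.3 and 29.6 TPM in Cre/Cre. Both genes overlapped between the genotypes, and within Cre/Cre both were lowest in replicate 1 and highest in replicate 3. Their log2 fold changes in Cre/Cre against +/+ were -0.15 (interval -0.37 to 0.08) and -0.21 (interval -0.44 to 0.03). Without Cre/Cre replicate 1 they were -0.02 and -0.07, and without replicate 3 they were -0.25 and -0.30 with unadjusted p of 0.0272 and 0.0181 in limma (adjusted p = 0.588 and 0.548). Genes antisense to both were low (*G630016G05Rik* at 3.83 to 6.53 TPM beside *Meis2*, *Gm10578* at 0 to 0.299 TPM within *Ebf3*) and shared 0 annotated exonic bases with them.

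*Barhl2*, a homeobox factor that sets amacrine subtype identity and is also used in RGCs (chromosome 5, 106452523 to 106458166, minus strand), had 18.9, 20.3 and 21.6 TPM in +/+, 19.8, 19.0 and 21.1 TPM in Cre/+, and 16.4, 20.9 and 20.0 TPM in Cre/Cre. Its genotypes overlapped, with a log2 fold change of -0.08 ± 0.11 (SE) in Cre/Cre that became 0.02 without replicate 1. *Neurod6*, a factor of amacrine cells that use neither GABA nor glycine (chromosome 6, 55677819 to 55681263, minus strand), had 2.23, 2.70 and 3.01 TPM in +/+, 2.86, 3.17 and 2.43 TPM in Cre/+, and 3.44, 1.95 and 2.71 TPM in Cre/Cre. The lowest and the highest of its 9 values were both in Cre/Cre, and it was the one gene of the 9 that was highest, not lowest, in Cre/Cre replicate 1. Its residual SD, 0.21 on the log2 scale, was above that of 79.1% of the genes tested, and its log2 fold change in Cre/Cre was 0.01 (interval -0.41 to 0.42), or -0.13 without replicate 1.

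*Sox2*, an HMG-box factor of Müller glia and of the cholinergic starburst amacrine cells (chromosome 3, 34649995 to 34652460, plus strand), had 50.1, 52.8 and 49.3 TPM in +/+, 48.8, 51.5 and 51.2 TPM in Cre/+, and 40.1, 46.3 and 43.6 TPM in Cre/Cre. All 3 Cre/Cre libraries lay below all 6 others, while +/+ and Cre/+ overlapped. Its mean in Cre/Cre was 85.3% of that in +/+, a log2 fold change of -0.23 ± 0.08 (SE) with an interval of -0.39 to -0.06. The unadjusted p in limma was 0.0112 and the adjusted p 0.624, so the difference did not pass the correction, and 265 genes had a smaller p. An exact two-sided permutation test of 3 against 3 libraries gave p = 0.1, the smallest it can give. In Cre/+ the log2 fold change was -0.01, with an interval of -0.17 to 0.16. In Cre/Cre against Cre/+ it was -0.22 (interval -0.39 to -0.05, limma unadjusted p = 0.0136, adjusted p = 0.739), and -0.17 without Cre/Cre replicate 1 (unadjusted p = 0.0353).

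The lower *Sox2* level in Cre/Cre was also there without the library rich in Rn45s. Without Cre/Cre replicate 1 the log2 fold change against +/+ was -0.17 (limma unadjusted p = 0.0293, adjusted p = 0.48), and after median-ratio scaling it was -0.20, with the 3 libraries at 86.8%, 89.9% and 84.0% of the +/+ mean and replicate 3, not 1, as the lowest. With *Xist* as a covariate it was -0.19 with an unadjusted p of 0.0822. *Sox2* varied little within genotypes, with a residual SD of 0.07 on the log2 scale, and 7.55% of the genes tested had less. Adjusted p-values for *Sox2* over all alternatives lay between 0.378 and 0.993.

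Other genes of its locus, of its cell types and of further cell types, RGCs among them, are set beside it here. *Sox2* lies wholly within *Sox2ot*, a noncoding gene on the same strand whose annotated exons share 0 bases with it, and *Sox2ot* had 12.8, 12.0 and 9.86 TPM in +/+, 11.9, 11.3 and 11.9 TPM in Cre/+, and 8.58, 12.3 and 11.8 TPM in Cre/Cre. Its genotypes overlapped, and the TPM ratio of *Sox2* to *Sox2ot* was 4.45 ± 0.538 for +/+, 4.31 ± 0.227 for Cre/+ and 4.04 ± 0.550 for Cre/Cre (SD, n = 3). The 8 Müller glial markers, led by *Glul*, the enzyme that makes glutamine, were all below 0 in Cre/Cre against +/+. Their median was -0.10, where 57.7% of all genes were below 0 with a median of -0.02. Also below 0 there were 7 of 7 markers of bipolar cells (median -0.10) and 7 of 7 of rods (-0.06). For horizontal cells and astrocytes it was 3 of 4 each, and for endothelium and mural cells 3 of 5. Fewer were below 0 for lens (5 of 14), blood (2 of 6) and pigment epithelium and ciliary body (0 of 4). Of the 8 Müller glial markers, 0 were called and 0 had an unadjusted p under 0.05 (6.97% of all genes had one). The genotypes did not overlap for 1 of the 8, *Rlbp1*, where this held for 10.8% of all genes. Against Cre/+ the 8 were again all below 0 (59.2% of all genes), with a median of -0.14. An unadjusted p under 0.05 in limma was found for 3 of the 8 (6.58% of all genes had one). These were the water channel gene *Aqp4* (-0.25, adjusted p = 0.74), the clusterin gene *Clu* (-0.22, adjusted p = 0.74) and *Glul* (-0.18, adjusted p = 0.74). Of them, *Clu* and *Glul* did not overlap between Cre/Cre and Cre/+, where 12.0% of all genes did not. The summed level of the 8 markers was 5116 to 5701 TPM in +/+, 5446 to 5721 TPM in Cre/+ and 4649 to 5313 TPM in Cre/Cre, so that Cre/Cre lay below Cre/+ in every library and overlapped +/+. After median-ratio scaling this sum was 5003 to 5787, 5384 to 5699 and 5055 to 5200 TPM in the same order, with the same overlaps. Markers of the starburst amacrine cell had small log2 fold changes of both signs in Cre/Cre against +/+, with 4 of 6 below 0 and a median of -0.05. They were -0.07 for *Chat*, the enzyme that makes acetylcholine, -0.05 for its vesicular transporter *Slc18a3*, and -0.05 each for *Fezf1* and *Isl1*. Not all of these genes belong to this cell alone. The paper names *Isl1* among genes of RGCs, and it had 91.5 ± 6.85 TPM in +/+ where *Chat* had 16.6 ± 2.29 TPM (SD, n = 3). The choline transporter *Slc5a7* had 0.14 and *Megf10* 0.09, and all 6 overlapped between these genotypes. Of 10 markers of RGCs, *Rbpms* included, 10 were below 0 in Cre/Cre against +/+ (57.7% of all genes), with a median of -0.32. Of them 1 was called (*Rbpms*, background 0.00658%), and 8 had an unadjusted p under 0.05 in limma (background 6.97%). Their summed level was 1561 to 1649 TPM in +/+ and 1137, 1373 and 1361 TPM in Cre/Cre replicates 1, 2 and 3. After median-ratio scaling it was 1526 to 1620 TPM in +/+ and 1239, 1343 and 1323 TPM in Cre/Cre. The part that any of these cell types had in the *Sox2* level was not tested.

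**Figure D4:**
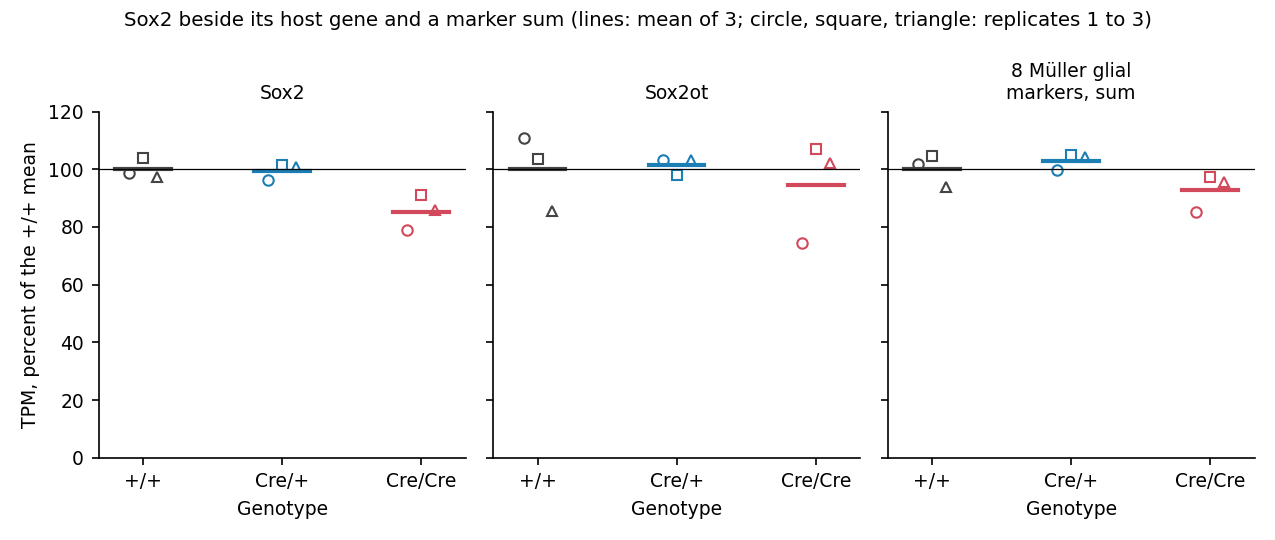
TPM of *Sox2*, of *Sox2ot* and of the sum of 8 Müller glial markers in every library, as percent of the +/+ mean, with a line at the mean of 3 libraries and circles, squares and triangles for replicates 1, 2 and 3. For *Sox2* all Cre/Cre points are below all other points (mean 85.3%), while for *Sox2ot* the genotypes overlap and for the Müller glial sum the Cre/Cre points lie below those of Cre/+ but not below all of +/+.

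Across the libraries the 9 genes moved in part together. In Cre/Cre replicate 1, 8 of the 9 were at their lowest of all libraries, at 70.9% (*Ebf3*) to 88.8% (*Tfap2b*) of the +/+ mean, and *Neurod6* was at 130% of it. After median-ratio scaling, 5 of the 9 were still lowest there (*Pax6*, *Tfap2a*, *Meis2*, *Barhl2* and *Ebf3*), and *Neurod6* was at 143%. Over the 9 libraries, Pearson's r on log2 values between pairs of the genes had a median of 0.56 before and 0.26 after scaling. What this difference came from was not tested. *Meis2* and *Ebf3* followed each other most closely, with r = 0.96 before and 0.94 after scaling, and *Tfap2c* and *Barhl2* came to 0.87 and 0.81. *Neurod6* had a negative r with all 8 others on either scale. Of the other 28 pairs, 0 were negative before and 4 after scaling. These are descriptions of 9 libraries that share 3 genotypes and 1 library that stood apart.

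**Figure D5:**
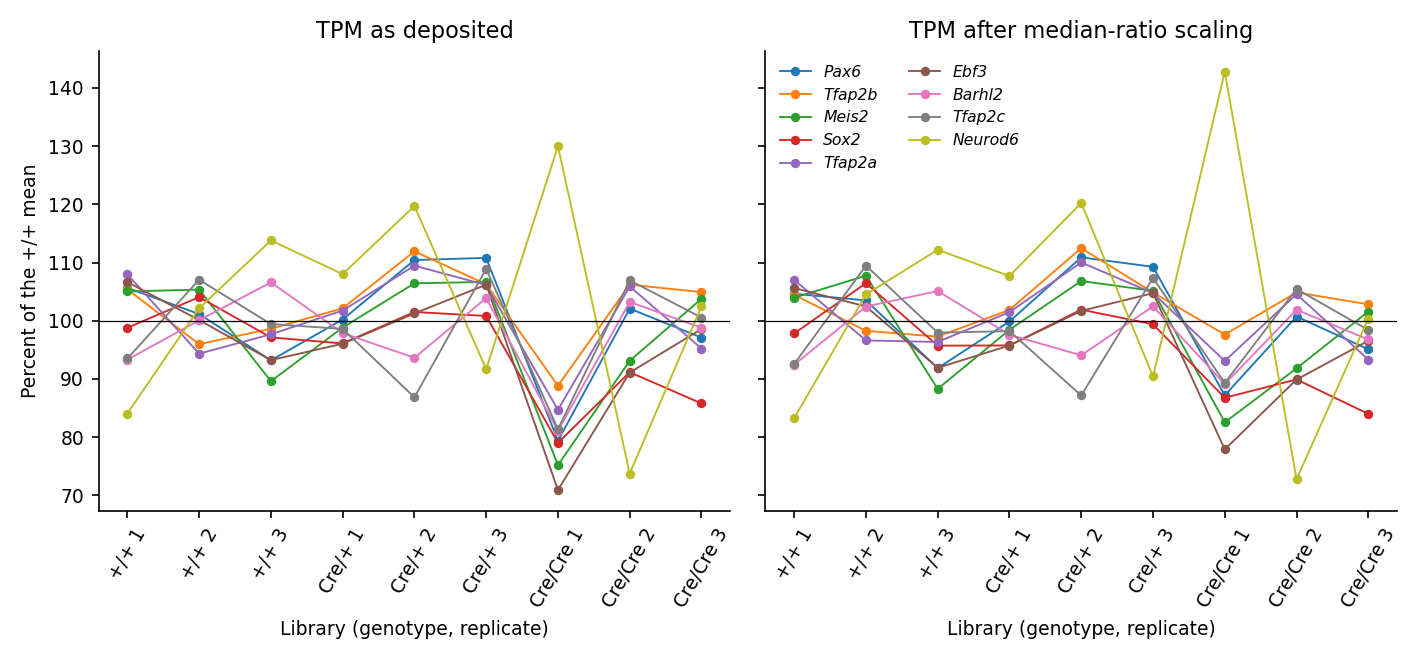
TPM of each gene in the 9 libraries as percent of its +/+ mean, as deposited (left) and after median-ratio scaling (right), with lines that only join the points of a gene. In Cre/Cre replicate 1 the lines dip to between 70.9% and 88.8% on the left except that of *Neurod6*, which peaks at 130% and, on the right, at 143%.

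The genes of the whole table most like each member over the 9 libraries came from 12372 genes with a mean of at least 5 TPM. On log2(TPM + 1) without scaling, these were *Zc3h12b* and *Mat2a* for *Pax6* (r = 0.99 and 0.97), *Kpna1* and *Pde7a* for *Tfap2b* (0.99 and 0.99), *Cyb5r4* and *Pcdhb20* for *Tfap2a* (0.98 and 0.96), and *Ebna1bp2* and *Nxpe3* for *Tfap2c* (0.95 and 0.94). *Hnrnph3* was the closest gene to both *Meis2* (0.98) and *Ebf3* (0.99), followed by *Kcne2* (0.97) and *B230217C12Rik* (0.98). *Eipr1* and *Arhgef40* led for *Barhl2* (0.98 and 0.97), *Ptgfrn* and *Ppa1* for *Sox2* (0.98 and 0.97), and *Cavin1* and *Sdhd* for *Neurod6* (0.92 and 0.89). No member had another member as 1 of its 2 closest genes. An r over 0.9 was reached by between 0.00808% (*Neurod6*) and 1.58% (*Ebf3*) of the candidates, and after scaling by at most 0.412% (*Meis2*). After median-ratio scaling the 2 closest genes were, in either order, again the same for *Tfap2b*, *Meis2*, *Barhl2*, *Ebf3* and *Neurod6*, while *Lrrtm2* replaced *Mat2a* for *Pax6*, *Brip1os* came first for *Tfap2a*, *Trap1* came first for *Tfap2c*, and *Adcy2* replaced *Ppa1* for *Sox2*.

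Of 31 other transcription factors of amacrine development or of the same families, 24 passed the filter, and 0 were called in any of the 3 comparisons. In Cre/+ against +/+, 10 of 24 were below 0 (49.6% of all genes) with a median of 0.08. In Cre/Cre against +/+, 17 of 24 were below 0 (57.7% of all genes) with a median of -0.03. The latter count was not repeated without Cre/Cre replicate 1, where the sum of these factors was the lowest of all libraries (1286 TPM). At an unadjusted p under 0.05 in limma, 1 of the 24 was higher and 1 lower in Cre/+ against +/+ (background 10.7%). In Cre/Cre against +/+, 1 was higher and 2 were lower (background 6.97%). Of these, *Neurod1*, a factor of photoreceptors and amacrine cells, had a log2 fold change of 0.20 in Cre/+ (limma adjusted p = 0.426). It had 638 ± 13.2 TPM in the +/+ retinas, 734 ± 15.5 TPM with 1 allele and 682 ± 86.5 TPM with both. *Meis3*, a relative of *Meis2*, had -0.29 in Cre/+ (adjusted p = 0.377) and -0.19 in Cre/Cre (adjusted p = 0.714), with mean levels of 41.1 ± 3.39, 33.4 ± 1.98 and 35.8 ± 2.76 TPM. *Neurod2*, a relative of *Neurod6* that is also found in amacrine cells, had 19.0, 19.3 and 21.3 TPM in +/+ and 13.3, 15.2 and 16.5 TPM in Cre/Cre, without overlap (-0.39, limma unadjusted p = 0.0022, adjusted p = 0.542). Cre/Cre lay below +/+ without overlap for 3 of the 24 factors, and 10.8% of all genes did not overlap in either direction. *Tfap2e*, the AP-2 gene of lowest level here, had 2.40, 1.39 and 0.714 TPM in +/+ and 2.51, 3.85 and 1.89 TPM in Cre/Cre, which overlapped (0.61, adjusted p = 0.691). Of these factors, *Neurod1*, *Neurod4* (163 ± 22.2 TPM in +/+) and *Prox1* (97.5 ± 8.77 TPM) had the highest means. Of the 15 amacrine markers, 0 were called in any comparison. In Cre/+ against +/+, 8 of 15 were below 0 (49.6% of all genes) with a median of -0.0025. In Cre/Cre against +/+ it was 11 of 15 (57.7% of all genes) with a median of -0.05. This count, too, was not repeated without Cre/Cre replicate 1, where the sum of the markers was the lowest of all libraries (1552 TPM). At an unadjusted p under 0.05, 3 of the 15 had a fold change below 0 in Cre/Cre against +/+, where 6.97% of all genes passed in either direction. They were the calretinin gene *Calb2* (-0.20, limma adjusted p = 0.594), the syntaxin gene *Stx1a* (-0.25, adjusted p = 0.679) and *Slc32a1*, the vesicular transporter of GABA and glycine (-0.16, adjusted p = 0.668). *Stx1a* and *Slc32a1* also had an unadjusted p under 0.05 in Cre/+ (-0.31 and -0.17, limma adjusted p = 0.39 and 0.405), where 10.7% of all genes did. *Calb2* had -0.14 there (adjusted p = 0.467). *Slc32a1* had 117, 119 and 123 TPM in +/+, 107, 107 and 104 TPM in Cre/+, and 107, 108 and 106 TPM in Cre/Cre, so both knock-in genotypes lay below +/+ and overlapped each other. Of all genes, 22.2% did not overlap between Cre/+ and +/+, and 10.8% did not between Cre/Cre and +/+.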

How the data were processed

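Strand-specific poly(A) libraries were sequenced by the authors as paired reads, trimmed with Trimmomatic, aligned to mm10 with HISAT2 and quantified with StringTie (versions, annotation and strand setting are not given in the sources used here). The authors deposited for each gene a coverage, an FPKM and a TPM value, the latter scaled to the same sum in every library. The tables hold no counts, so the DESeq2 test of the authors was not repeated, and counting error per gene cannot be had. Precision rests on the spread between the 3 libraries within each genotype.

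TPM was summed by gene name. Genes with a mean of at least 1 TPM (15198 of 25239) were tested with limma 3.58.1 (trend and robust prior) in R 4.3.3 on log2(TPM + 1), which understates changes of low genes, in 1 model of all 9 libraries with genotype as its term and 6 residual degrees of freedom. P-values were adjusted by Benjamini-Hochberg over all genes tested, with a limit of 0.05. The code was tested on simulated data. Alternatives were a pseudocount of 0.1, no filter, a replicate block, *Xist* as a covariate, only the genotypes compared, median-ratio scaling, FPKM, each library left out and, chosen after seeing the data, coverage for levels. The 9 genes and all lists were chosen with earlier results of these data known. Named beside the 9 are related factors with an unadjusted p under 0.05 against +/+ or among the 3 of highest mean TPM, the 2 genes most like each member, overlapping genes, *Rbpms* and list genes given beside a result. Gene positions are those of the deposited tables, exons come from GENCODE (GRCm38) and promoters from RefSeq. A p-value in limma weighs a genotype difference against the spread between libraries within genotypes, pooled over the 3 genotypes and moderated across genes.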

Additional observations from a re-analysis of the deposited data

How the results depend on the processing

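In all 3 comparisons, 0 of the 9 genes were called under each of 16 alternatives. Between genotypes, libraries of the same replicate number were not more alike than others. Their correlations ran from -0.116 to 0.128, and those of differently numbered libraries from -0.194 to 0.261. With a replicate block the count was 0 in each comparison. The log2 fold changes that changed sign were all small, and their causes were not tested. With *Xist* as a covariate, *Sox2* in Cre/+ came to 0.012, and in Cre/Cre *Tfap2a* came to 0.0061, *Tfap2b* to 0.048 and *Neurod6* to -0.077. With FPKM, *Ebf3* in Cre/+ came to -0.0074 and *Neurod6* in Cre/Cre to -0.017, and with median-ratio scaling *Tfap2b* in Cre/Cre came to 0.025. Leaving out a library in turn gave, in Cre/+ against +/+, *Tfap2c* from -0.10 to 0.050, *Meis2* from -0.017 to 0.098, *Barhl2* from -0.067 to 0.024, *Ebf3* from -0.031 to 0.063, *Neurod6* from -0.018 to 0.14 and *Sox2* from -0.027 to 0.021. In Cre/Cre against +/+ it gave *Tfap2a* from -0.15 to 0.0082, *Tfap2b* from -0.049 to 0.079, *Tfap2c* from -0.13 to 0.051, *Barhl2* from -0.15 to 0.016 and *Neurod6* from -0.13 to 0.16. *Sox2*, *Ebf3*, *Meis2* and *Pax6* were below 0 in Cre/Cre under all 16. At an unadjusted p under 0.05 the count ranged from 0 to 3 of 9 in Cre/Cre against +/+, where it was 4.97% to 9.47% of all genes, and from 1 to 4 in Cre/Cre against Cre/+, where it was 4.26% to 12.5% of all genes.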
